A study of Homo sapiens with 8 samples.

Results

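The comparison set the cyclic depsipeptides largazole and FK228, each at 20 nM, against the hydroxamic acid SAHA at 2 µM in HCT116 cells, an established human colorectal carcinoma line. The mean of the largazole and FK228 groups minus the SAHA group was fitted for every gene on the deposited log2 levels, and the genes described are those on which all 4 depsipeptide arrays lay on the same side of both SAHA arrays and whose difference was called. That left 29 of 13381 tested genes, 25 higher and 4 lower with the depsipeptides. The values come from 6 of the 8 Affymetrix U133 2.0 arrays of the study, 2 per compound, and 2 arrays of vehicle-treated cells give the untreated level. All cultures were seeded a day before treatment and RNA was taken after 10 h; no label names the vehicle's solvent. Nothing in the labels makes the duplicates separate cultures, so the p-values reflect the spread between these arrays alone, which may be technical. The depsipeptides and SAHA were given at different doses, 20 nM and 2 µM, so compound class and dose cannot be told apart in any value against SAHA. Such values compare the treatments as given, not the structures or the potencies. The pair at equal dose and time is FK228 against largazole.

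Histone deacetylases remove acetyl groups from lysines of histones and other proteins, and inhibiting them raises acetylation and both raises and lowers transcripts. Largazole is a macrocyclic depsipeptide with a thioester side chain, and FK228 (romidepsin) is a bicyclic depsipeptide closed by a disulfide. Both are prodrugs that release a thiol, which binds the zinc ion of the active site, and both act mainly on class I deacetylases. SAHA (vorinostat) binds the same zinc through its hydroxamic acid and acts on more of the family, among them HDAC6, which deacetylates tubulin.

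The promoters of the most clearly separated genes show what sequence lies at them. Genes were ranked by the smaller of their differences from SAHA with the 2 depsipeptides. Printed are 2 of the highest and the 2 lowest with an entry in the RefSeq promoter table (GRCh38.p14). DKK4 ranked highest, at 1.24 against 1.09 for SYT11 and 1.07 for MIR7-3HG, and is not printed. Each run is the 250 bases before the annotated start, 5′ to 3′ on the gene's strand. Capitals mark GGGCGG (a GC box), TATAAA and CCAAT on either strand. SYT11 (chr1:155859317-155859566, plus strand), a synaptotagmin of membrane trafficking, and MIR7-3HG (chr19:4768855-4769104, plus strand), a host transcript of a microRNA, were higher with the depsipeptides. GLIS3 (chr9:4298497-4298746, minus strand), a zinc finger transcription factor, and NRIP1 (chr21:15065937-15066186, minus strand), a corepressor of nuclear receptors, were lower.
SYT11: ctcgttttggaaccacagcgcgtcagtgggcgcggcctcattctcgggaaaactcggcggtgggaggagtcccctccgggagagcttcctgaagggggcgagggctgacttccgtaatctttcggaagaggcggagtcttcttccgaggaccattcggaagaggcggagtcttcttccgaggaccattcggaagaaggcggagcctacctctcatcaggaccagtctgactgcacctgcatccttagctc
MIR7-3HG: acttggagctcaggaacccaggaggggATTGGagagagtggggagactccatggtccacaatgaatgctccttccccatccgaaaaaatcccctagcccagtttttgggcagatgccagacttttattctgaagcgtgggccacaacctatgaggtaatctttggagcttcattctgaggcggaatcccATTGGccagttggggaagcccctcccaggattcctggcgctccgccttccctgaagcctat
GLIS3: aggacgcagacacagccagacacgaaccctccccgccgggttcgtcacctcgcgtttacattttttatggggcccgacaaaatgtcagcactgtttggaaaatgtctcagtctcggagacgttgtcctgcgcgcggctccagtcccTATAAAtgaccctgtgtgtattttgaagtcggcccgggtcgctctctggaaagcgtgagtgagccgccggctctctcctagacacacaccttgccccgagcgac
NRIP1: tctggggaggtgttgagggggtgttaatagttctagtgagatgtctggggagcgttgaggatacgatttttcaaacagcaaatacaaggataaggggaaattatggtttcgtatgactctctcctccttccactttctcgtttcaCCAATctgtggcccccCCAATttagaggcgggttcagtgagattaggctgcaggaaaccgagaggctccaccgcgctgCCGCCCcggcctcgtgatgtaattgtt
The 4 windows differed in composition. The SYT11 window held 60% G and C and none of the 3 motifs, while the MIR7-3HG window held 54.4% G and C, a ratio of observed to expected CpG of 0.27, and 2 CCAAT. The GLIS3 window held 57.6% G and C, a CpG ratio of 1.02 and 1 TATAAA. The NRIP1 window held 50.8% G and C, 1 GC box and 2 CCAAT. Over the whole set, 21 of the 29 genes had an entry, against 10762 of all 13381 tested genes, and the median share of G and C was 72.4% against 64.8%. GGGCGG on either strand occurred in 17 of the 21 windows (81%) against 66.3% of all windows of that length, TATAAA in 4 (19%) against 5.57%, and CCAAT in 9 (42.9%) against 34.8%. These shares are descriptions, and a match is not shown to be a bound site.

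The arrays matched one another closely. Median log2 level lay between 4.47 and 4.51 on the 8 arrays. Pearson's r across all probe sets was 0.995 to 0.997 between duplicates, 0.993 to 0.996 between a depsipeptide array and a SAHA array, 0.993 to 0.994 between a largazole and an FK228 array, and 0.975 to 0.984 between a treated and a vehicle array. Of 12 epithelial markers of this line, 10 reached the filter value of 4.49 (log2, the median of all values) on every array and GPA33 and CDH17 lay under it. EPCAM ran from 12.04 to 12.74, and PTPRC, the pan-leukocyte marker, from 2.40 to 2.90. Leukocyte markers lay under the filter value on every array for 9 of the 12 on the array, and their mean level ran from 3.89 to 3.97 with largazole, 3.90 to 3.98 with FK228 and 3.90 to 3.95 with SAHA. Reaching the filter value was no mark of cell type. Of 13 markers of other epithelial lines, 8 reached it on every array, PAX8 at 6.96 to 7.30. Of 14 fibroblast and endothelial markers 5 did, COL1A1 at 7 to 8.56.

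The number of genes that separated the depsipeptides as a pair from SAHA depended on the setting. The arrays measured bulk RNA, so a change in some cells and a change in every cell cannot be told apart. By limma with Benjamini-Hochberg adjustment over 28985 probe sets, 32 genes passed an adjusted p of 0.05 (0.239% of those tested), 25 higher (0.187%) and 7 lower (0.0523%). All 25 higher genes and 4 of the lower ones also met the side condition, which gives the 29 (0.217%; 0.0299% for the 4 lower ones). The side condition alone was met by 2305 genes (17.2%), 1460 higher (10.9%) and 845 lower (6.31%), so it is a weak filter, and 1971 genes had an unadjusted p under 0.05 (14.7%). The mean difference reached 2-fold in 10 genes that were higher and 1 that was lower, NRIP1. For 4 arrays against 2 the smallest two-sided p of an exact permutation test is 0.1333, so none was run for single genes.

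A stricter filter on low levels gave 264 called genes in place of 32, and an intensity trend with a robust prior gave 243. The counts also rested on each of the few arrays. With SAHA array 1 left out, limma called 0 genes, with a lowest adjusted p of 0.0769, while 1221 had an unadjusted p under 0.05. With SAHA array 2 left out it called 1 gene, MIR7-3HG. Leaving out largazole array 1 or 2 left 6 or 2 called genes, and leaving out FK228 array 1 or 2 left 10 or 18. Leaving out either vehicle array left 20, of which 17 were among the 29. The 29 kept their direction in each of these 8 fits. The choice of 1 probe set per gene also set some sizes: when a gene's probe sets were averaged OLFM1 gave 0.51, DPYSL4 0.43, CRISPLD2 0.38, PLCXD1 0.36, LFNG 0.30, FTCD 0.25 and HS3ST1 -0.23, each more than 1.5 times nearer 0.

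At most other genes the estimates bound the difference. The 95% interval of the depsipeptide mean minus SAHA lay within 1 log2 unit (2-fold) of 0 for 13327 genes (99.6%) and within 0.5 for 11501 (86%). Its median half-width was 0.21. The SAHA mean lay between the largazole and FK228 means for 5583 genes (41.7%), so for these the depsipeptides were on opposite sides of SAHA.

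**Figure D1:**
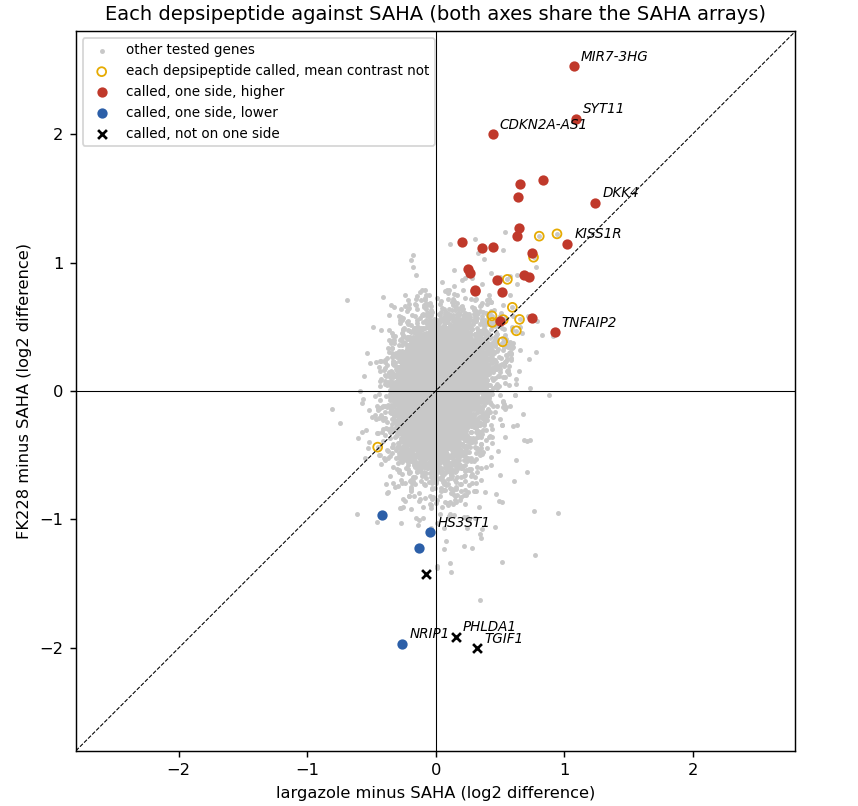
Difference from SAHA with largazole (horizontal axis, log2) and with FK228 (vertical axis, log2), 1 point per tested gene. The 2 axes share the SAHA arrays, so their joint spread is not read as a relation; filled points are the 29 genes, crosses the 3 called genes with arrays on both sides, and open circles the 12 genes called with each compound but not on the mean, and for 27 of the 29 filled points FK228 lies further from SAHA than largazole does (the dashed line marks equal differences).

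SYT11, ARC and OLFM1 were higher with the depsipeptides than with SAHA. SYT11 stood at 6.99 and 7.24 with largazole, 8.10 and 8.19 with FK228, 5.93 and 6.12 with SAHA, and 3.35 and 3.10 with vehicle. It rose under all 3 compounds and furthest under FK228, with no overlap between any of the 4 groups. The depsipeptide mean exceeded SAHA by 1.61 ± 0.11 (log2 difference ± SE; 3.04-fold, adjusted p = 0.00505), and a second probe set of SYT11 gave 1.62. ARC, an activity-regulated cytoskeletal protein, was measured at 7.46 and 7.59 with largazole, 8.08 and 8.12 with FK228, 6.88 and 6.91 with SAHA, and 6.34 and 6.51 with vehicle. Its 4 groups kept the same order, and the mean difference from SAHA was 0.92 ± 0.08 (adjusted p = 0.0103). OLFM1, a secreted olfactomedin glycoprotein, stood at 6.75 and 6.88 with largazole, 7.07 and 6.99 with FK228, 6.08 and 6.18 with SAHA, and 5.44 and 5.54 with vehicle. The depsipeptide arrays lay close together and above SAHA by 0.79 ± 0.08 (adjusted p = 0.0145), though only 2 of its 3 tested probe sets had that sign.

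DPYSL4 and BAIAP2, named after their values were seen, were also higher. DPYSL4 is a dihydropyrimidinase-like protein of growing axons, and BAIAP2 links small GTPases to actin at the membrane. DPYSL4 stood at 7.86 and 7.95 with largazole, 8.60 and 8.71 with FK228, 7.56 and 7.52 with SAHA, and 5.73 and 5.53 with vehicle. BAIAP2 stood at 9.25 and 9.29 with largazole, 10.17 and 10.29 with FK228, 9.04 and 9.10 with SAHA, and 7.86 and 7.69 with vehicle. In both genes largazole lay near SAHA, at 0.36 and 0.20 above it, and FK228 lay 1.11 and 1.16 above it. The mean differences from SAHA were 0.74 (adjusted p = 0.0274) and 0.68 (adjusted p = 0.0274). Of the 27 tested genes on a wider list of neuronal and synaptic genes, SYT11 was the called member; ARC, OLFM1, DPYSL4 and BAIAP2 are not on it. The side condition was met upward by 6 of the 27 (22.2%, against 10.9% of all genes) and downward by 0, and the median difference was 0.10 against 0.01 over all genes.

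DKK4 and FZD9 belong to the Wnt pathway and NRARP and LFNG to the Notch pathway, which pass signals between cells, and all 4 were higher with the depsipeptides. Wnt signalling is constitutively active in this line through a mutant beta-catenin. DKK4, a secreted Wnt antagonist and itself a Wnt target, stood at 7.42 and 7.38 with largazole, 7.45 and 7.80 with FK228, 6.24 and 6.08 with SAHA, and 4.04 and 4.30 with vehicle. The compounds all raised it, and the depsipeptides did so to nearly the same level. The mean difference from SAHA was 1.35 ± 0.12 (2.55-fold, adjusted p = 0.0107). FZD9, a Wnt receptor named after its values were seen, stood at 5.31 and 5.30 with largazole, 5.62 and 5.75 with FK228, 4.94 and 4.71 with SAHA, and 4.67 and 4.59 with vehicle. The depsipeptide mean lay 0.67 above SAHA (adjusted p = 0.045), and SAHA itself lay 0.19 above vehicle (adjusted p = 0.174).

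Among Wnt targets as a list, DKK4 was the called member of 16 tested. The list's median difference was 0.07, made of 0.22 with largazole and -0.10 with FK228, and it ran from -0.03 to 0.11 over the alternative settings. NRARP, which blunts Notch signalling as a feedback inhibitor, stood at 9.27 and 9.31 with largazole, 9.36 and 9.32 with FK228, 8.77 and 8.82 with SAHA, and 7.98 and 8.08 with vehicle. LFNG, a glycosyltransferase that modifies Notch receptors, stood at 7.42 and 7.42 with largazole, 7.86 and 7.95 with FK228, 7.07 and 7.16 with SAHA, and 6.80 and 6.79 with vehicle. All depsipeptide arrays lay above SAHA in both, by a mean of 0.52 ± 0.07 (adjusted p = 0.045) and 0.55 ± 0.07 (adjusted p = 0.0391). Of 22 tested Notch pathway genes these 2 were called (0.187% of all genes were called higher). All depsipeptide arrays lay above SAHA for 8 (36.4%) and below it for 2 (9.09%), against 10.9% and 6.31% of all genes. The median difference was 0.13, against 0.01 over all genes, and lay between 0.10 and 0.18 over the alternative settings. The lowest member was the coactivator MAML2, at -0.74, which was not called.

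IRF7, SOX8 and CDKN1C were also higher with the depsipeptides. IRF7, the interferon regulatory factor that drives type I interferon genes, stood at 8.53 and 8.69 with largazole, 9.46 and 9.66 with FK228, 7.83 and 8.07 with SAHA, and 5.93 and 5.90 with vehicle. Its mean difference from SAHA was 1.13 ± 0.10 (2.19-fold, adjusted p = 0.0107). It was the called member of 27 interferon regulators and stimulated genes, whose median difference was 0.03. The lowest of these 27 was IRF2, at -0.78 with all depsipeptide arrays below SAHA, which was not called. SOX8, a transcription factor of neural crest and glia, stood at 8.21 and 8.24 with largazole, 8.80 and 8.88 with FK228, 7.49 and 7.66 with SAHA, and 6.43 and 6.73 with vehicle, a mean difference of 0.96 ± 0.10 (adjusted p = 0.0208). CDKN1C, a CDK inhibitor of the Cip/Kip family, stood at 9.63 and 9.60 with largazole, 10.10 and 10.07 with FK228, 9.28 and 9.33 with SAHA, and 7.98 and 7.90 with vehicle. The depsipeptide mean lay 0.55 ± 0.07 above SAHA (1.46-fold, adjusted p = 0.0344), and all 4 of its probe sets had that sign. Its relative CDKN1A, the usual marker of response to these inhibitors, did not separate them, at 10.62 and 10.79 with largazole, 10.78 and 10.79 with FK228, 10.73 and 10.85 with SAHA, and 9.82 and 9.86 with vehicle. The CDKN1A difference was -0.05 with a 95% interval from -0.23 to 0.14 (adjusted p = 0.818). All 3 compounds raised it, by 0.86, 0.94 and 0.95 over vehicle.

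KISS1R and TNFAIP2 were the higher genes on which SAHA was called below vehicle. KISS1R, the receptor of kisspeptin, stood at 8.43 and 8.55 with largazole, 8.66 and 8.56 with FK228, 7.36 and 7.57 with SAHA, and 7.96 and 8.08 with vehicle. The depsipeptides raised it over vehicle by 0.47 (adjusted p = 0.00844) and 0.59 (adjusted p = 0.00217), and under SAHA it fell by 0.56 (adjusted p = 0.0035). The depsipeptide mean thus lay 1.09 ± 0.09 above SAHA (2.12-fold, adjusted p = 0.00946). TNFAIP2, a gene induced by tumour necrosis factor, stood at 7.03 and 7.05 with largazole, 6.51 and 6.64 with FK228, 6.10 and 6.13 with SAHA, and 6.85 and 7.04 with vehicle. SAHA lowered it (log2 difference from vehicle -0.83, adjusted p = 0.000309), FK228 lowered it less (-0.37, adjusted p = 0.0124), and the largazole difference of 0.09 from vehicle was not called (adjusted p = 0.479). The mean difference from SAHA was 0.69 ± 0.08 (adjusted p = 0.0274), and TNFAIP2 was the called member of 18 NF-kappaB subunits, inhibitors and targets, whose median difference was 0.02.

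RASD1, a Ras-related GTPase induced by dexamethasone, followed a different course. It stood at 5.72 and 5.76 with largazole, 6.59 and 6.64 with FK228, 4.97 and 5.23 with SAHA, and 5.06 and 4.78 with vehicle. SAHA and vehicle overlapped (difference 0.18, 95% interval -0.11 to 0.46), whereas both depsipeptides lay above all 4 of those arrays, and the mean difference from SAHA was 1.08 ± 0.11 (adjusted p = 0.0145). CD24, a surface glycoprotein named after its values were seen, stood at 8.91 and 8.85 with largazole, 8.74 and 8.66 with FK228, 8.04 and 8.21 with SAHA, and 7.32 and 7.39 with vehicle. It was one of the 2 higher genes on which largazole lay further from SAHA than FK228 did, the other being TNFAIP2. Its mean difference was 0.66 ± 0.08 (adjusted p = 0.0283), with the same sign in all 6 probe sets, of which 2 were called. All 6 end in _x_at or _s_at and so can hybridise to several transcripts.

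HSPA2 and ANKRD37 were higher with the depsipeptides. HSPA2, a chaperone of the heat shock family, stood at 7.72 and 7.89 with largazole, 8.15 and 8.11 with FK228, 7.11 and 7.00 with SAHA, and 6.16 and 6.05 with vehicle, a mean difference of 0.91 ± 0.08 (1.88-fold, adjusted p = 0.0108). ANKRD37, an ankyrin repeat gene induced in hypoxia, stood at 8.46 and 8.53 with largazole, 8.66 and 8.65 with FK228, 7.76 and 7.76 with SAHA, and 7.37 and 7.58 with vehicle. The depsipeptides lay 0.81 ± 0.08 above SAHA (1.75-fold, adjusted p = 0.0145). It was the called member of 33 glycolysis and hypoxia genes, of which 7 (21.2%) had all depsipeptide arrays above SAHA and 2 (6.06%) below, against 10.9% and 6.31% of all genes. The list's median was 0.04. FTCD, a folate and histidine enzyme named after its values were seen, is less secure: its mean difference was 0.64 (adjusted p = 0.0351), but without probe sets that can hybridise to several transcripts the brightest of its remaining probe sets gave -0.03. Also named after their values were seen were CRISPLD2, a secreted protein, at 0.78 (adjusted p = 0.0217), METRNL, a secreted meteorin-like factor, at 0.59 (adjusted p = 0.045), and PLCXD1, a phospholipase-like gene, at 0.60 (adjusted p = 0.0413). Of the 2 probe sets of CRISPLD2, 1 had that sign, and the compounds raised the level over vehicle by 3.32 with largazole, 3.99 with FK228 and 2.87 with SAHA.

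3 transcripts without a protein product were higher as well. MIR7-3HG stood at 4.62 and 4.90 with largazole, 6.12 and 6.31 with FK228, 3.55 and 3.82 with SAHA, and 3.23 and 3.06 with vehicle. Its difference from SAHA, 1.80 ± 0.12 (3.49-fold, adjusted p = 0.00505), was the largest of the 29. SAHA and vehicle arrays lay under the filter value of 4.49, so this gene was tested only through its depsipeptide arrays and had to differ. CDKN2A-AS1, antisense to a CDK inhibitor gene, stood at 5.43 and 5.12 with largazole, 6.99 and 6.67 with FK228, 4.92 and 4.74 with SAHA, and 4.25 and 3.92 with vehicle, a mean difference of 1.22 ± 0.14 (adjusted p = 0.0274). CEP192P1, a pseudogene of a centrosome gene whose probes may also bind the parent transcript, stood at 5.89 and 6.12 with largazole, 6.83 and 6.79 with FK228, 4.99 and 5.35 with SAHA, and 3.42 and 3.07 with vehicle. The mean difference was 1.24 ± 0.14 (adjusted p = 0.0249), and it was 0.58 without FK228 array 1 and 0.78 without FK228 array 2, where the other of its 2 probe sets was the brighter one.

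The 4 lower genes were separated mainly by FK228. NRIP1 stood at 6.01 and 6.11 with largazole, 4.17 and 4.53 with FK228, 6.36 and 6.28 with SAHA, and 9.24 and 9.10 with vehicle. All compounds lowered it, with FK228 it fell by 4.82 on the log2 scale against vehicle, and the depsipeptide mean minus SAHA was -1.11 ± 0.11 (2.16-fold lower, adjusted p = 0.0145). ARID1A, a subunit of SWI/SNF chromatin remodellers, stood at 8.04 and 8.04 with largazole, 6.90 and 7.00 with FK228, 8.07 and 8.27 with SAHA, and 9.64 and 9.64 with vehicle. HS3ST1, a heparan sulfate sulfotransferase, stood at 7.78 and 7.84 with largazole, 6.80 and 6.70 with FK228, 7.86 and 7.84 with SAHA, and 10.13 and 10.05 with vehicle. Largazole lay just under SAHA in these 3 genes, by -0.26, -0.13 and -0.04, and FK228 lay far under it, by -1.97, -1.22 and -1.10. The mean differences were -0.68 for ARID1A (adjusted p = 0.0283) and -0.57 for HS3ST1 (adjusted p = 0.0358). GLIS3 was the lower gene that lay above vehicle with the compounds: it stood at 5.24 and 5.36 with largazole, 4.87 and 4.64 with FK228, 5.71 and 5.72 with SAHA, and 4.53 and 4.45 with vehicle. SAHA raised it by 1.23 and largazole by 0.81 over vehicle, FK228 lay 0.26 above (adjusted p = 0.0643), and the mean difference of the depsipeptides from SAHA was -0.69 ± 0.09 (adjusted p = 0.0378).

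**Figure D2:**
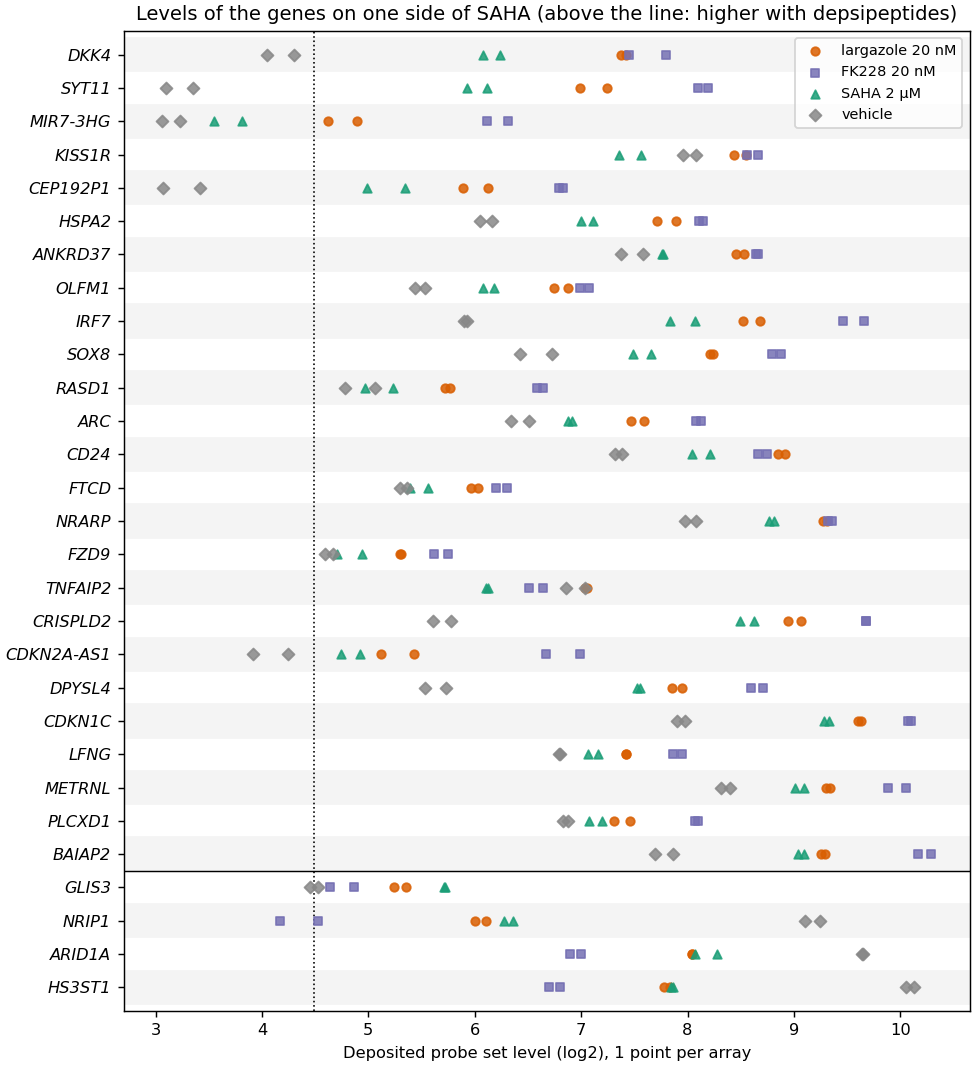
Deposited log2 level (horizontal axis) of the 29 genes, 1 row per gene and 1 point per array, in the largazole, FK228, SAHA and vehicle groups of 2 arrays each. The dotted line is the filter value of 4.49, and the 4 genes under the solid line are lower with the depsipeptides; in 22 of the 25 upper rows the vehicle arrays lie to the left of every treated array.

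The vehicle level placed the SAHA arrays between vehicle and the depsipeptides for most of the higher genes. In 22 of the 25 (88%) both vehicle arrays lay below all treated arrays, against 27.2% of all tested genes and 30.4% of the 1460 genes that met the side condition upward. The 3 others were KISS1R, TNFAIP2 and RASD1. In 3 of the 4 lower genes (75%) the vehicle arrays lay above all treated arrays, against 29.8% of all genes. By limma against vehicle, largazole raised 24 of the 25, FK228 24 and SAHA 20, against 21.9%, 25.7% and 22.1% of all tested genes. These genes were chosen by their depsipeptide arrays in the same fit, so the counts against vehicle are a description. Vehicle lay under the filter value in 5 of the 25 (20%, against 4.42% of all genes): DKK4, SYT11, MIR7-3HG, CEP192P1 and CDKN2A-AS1. These 5 passed the filter through treated arrays and so had to differ from vehicle.

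At equal dose, FK228 and largazole differed on most of the 29 genes. This is the 1 pair of compounds at matched dose and time, and its contrast uses the same arrays and the same variance estimates as the one that chose the genes. The counts over the 29 are therefore a description. FK228 was higher than largazole by limma for 15 genes and lower for 5, against 561 (4.19%) and 653 (4.88%) of 13381 (9.07% together), and 9 were not called. The same 15 and 5 were called when p was adjusted over the 3 pairs of compounds together, which calls 6.14% of all genes. FK228 lay further from SAHA than largazole did for 27 of the 29, against 8394 of 13381 over all genes. Among the higher genes FK228 minus largazole was 1.56 for CDKN2A-AS1 (95% interval 1.17 to 1.94, adjusted p = 0.00404), 1.46 for MIR7-3HG (1.13 to 1.78, adjusted p = 0.00273) and 1.03 for SYT11 (0.73 to 1.33, adjusted p = 0.00691). Among the lower genes it was -1.71 for NRIP1 (-2.00 to -1.41, adjusted p = 0.00173), -1.09 for ARID1A (-1.31 to -0.87, adjusted p = 0.00233) and -1.06 for HS3ST1 (-1.25 to -0.87, adjusted p = 0.00197). TNFAIP2 went the other way among the higher genes, lower with FK228 than with largazole by -0.47 (-0.69 to -0.25, adjusted p = 0.0278).

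For 9 genes the compounds were not called different at equal dose, and the intervals say how large a difference remains possible. For NRARP FK228 minus largazole was 0.05 (95% interval -0.14 to 0.23), for KISS1R 0.12 (-0.12 to 0.36), for ANKRD37 0.16 (-0.06 to 0.38), for CD24 -0.18 (-0.39 to 0.03) and for DKK4 0.22 (-0.10 to 0.55). These 5 intervals include 0 and, but for the upper end of DKK4, lie within 0.5 log2 units of it. OLFM1 at 0.22 (0.01 to 0.43), FTCD at 0.25 (0.03 to 0.47), HSPA2 at 0.33 (0.10 to 0.55) and FZD9 at 0.38 (0.14 to 0.62) had intervals above 0 that did not pass after adjustment. On all 9 the mean difference from SAHA lay above the upper end of the interval between the depsipeptides. For KISS1R, DKK4, ANKRD37 and NRARP that mean difference was 1.09, 1.35, 0.81 and 0.52. The genes were chosen by this difference on the same arrays, so the comparison is a description.

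**Figure D3:**
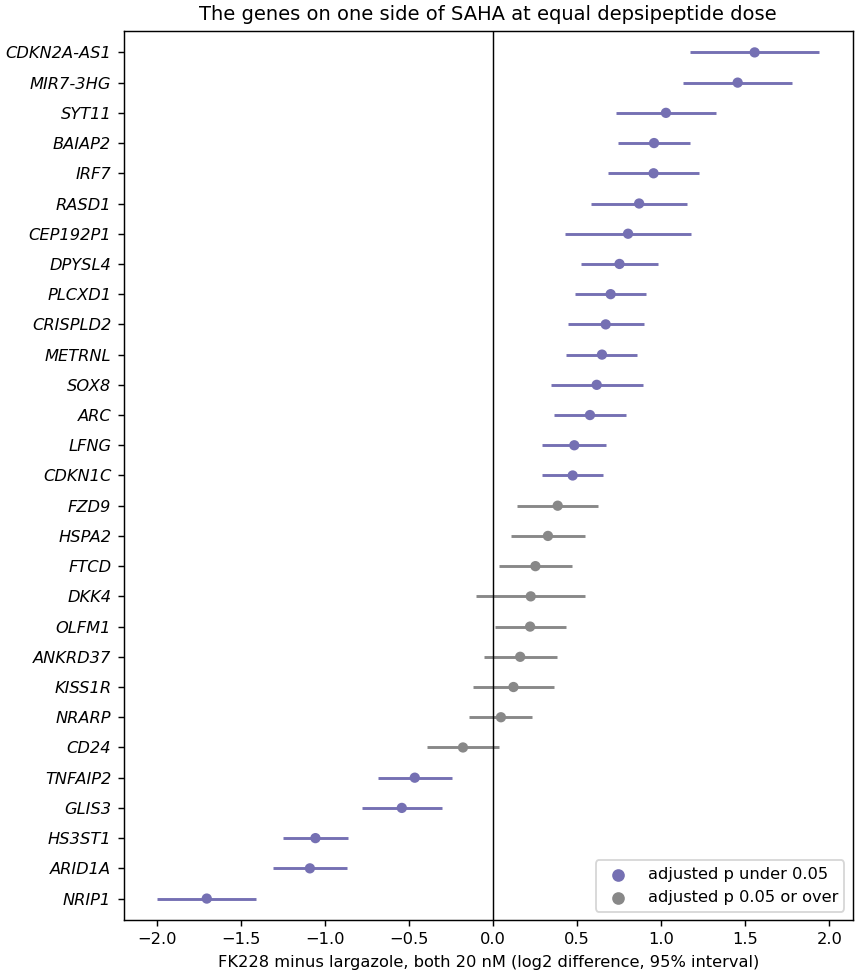
FK228 minus largazole, both at 20 nM, for the 29 genes (horizontal axis, log2 difference with its 95% interval). Purple intervals passed an adjusted p of 0.05; FK228 is higher for 15 genes, lower for 5, and the 9 grey ones were not called.

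Set against SAHA singly, the depsipeptides gave unequal counts. The 2 comparisons share the SAHA arrays. With p adjusted over the 3 pairs, largazole minus SAHA was called for 101 genes (0.755%), 85 of them higher (0.635%), and FK228 minus SAHA for 673 (5.03%), 344 of them higher (2.57%). Both were called in the same direction for 28 genes (0.209%), 27 higher (0.202%) and 1 lower (0.00747%), and 16 of these were among the 29 (57.1% of the 28 and 55.2% of the 29). All 29 were called for FK228 and 16 for largazole, and since the contrast that chose them contains both differences these counts are a description. The 4 lower genes did not pass for largazole alone, with adjusted p of 0.069 for GLIS3, 0.302 for NRIP1, 0.487 for ARID1A and 0.832 for HS3ST1.

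A further 12 genes, named after their values were seen, were called with each depsipeptide and missed the threshold on the mean (adjusted p from 0.0501 to 0.0699). FK228 and largazole did not separate on these (adjusted p from 0.149 to 0.938). ETV7, an ETS transcription factor, stood at 6.45 and 6.15 with largazole, 6.81 and 6.34 with FK228, 5.48 and 5.23 with SAHA, and 2.83 and 2.98 with vehicle. ACSBG1, an acyl-CoA synthetase of brain, stood at 6.51 and 6.56 with largazole, 6.69 and 7.17 with FK228, 5.70 and 5.75 with SAHA, and 3.62 and 3.28 with vehicle. Both rose strongly with every compound and further with the depsipeptides, by 1.08 ± 0.15 and 1.01 ± 0.15 over SAHA. NRXN2, a presynaptic adhesion protein, lay 0.51 above SAHA, and SAHA lay 0.08 above vehicle. TUBB4A, a beta tubulin of neurons and glia, lay 0.49 above, ATP6V1C2, a proton pump subunit, 0.62 and P4HA3, a collagen prolyl hydroxylase, 0.71. CYP4F2, a fatty acid hydroxylase, lay 0.55 above SAHA, and CCDC144NL-AS1, an antisense transcript under the filter value in the SAHA and vehicle arrays, 0.90. CCDC144NL-AS1 was thus tested only through its depsipeptide arrays, so its difference from SAHA was favoured by the filter.

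In the other 4 of these 12, SAHA was called against vehicle and neither depsipeptide was. PGGHG, a hydroxylysine glucosidase, stood at 6.49 and 6.50 with largazole, 6.32 and 6.40 with FK228, 5.96 and 5.99 with SAHA, and 6.49 and 6.48 with vehicle. SYNM, an intermediate filament protein, stood at 6.36 and 6.29 with largazole, 6.25 and 6.22 with FK228, 5.66 and 5.69 with SAHA, and 6.18 and 5.96 with vehicle. SAHA lowered PGGHG by a log2 difference of -0.51 (adjusted p = 0.0013) and SYNM by -0.40 (adjusted p = 0.012). TCIRG1, a proton pump subunit of osteoclasts, lay -0.30 from vehicle with SAHA (adjusted p = 0.038) and 0.22 and 0.25 from it with largazole and FK228. OR51B2, an olfactory receptor, went the other way: 5.28 and 5.34 with largazole, 5.27 and 5.39 with FK228, 5.81 and 5.72 with SAHA, and 5.36 and 5.40 with vehicle. SAHA raised it by 0.38 (adjusted p = 0.0079) and the depsipeptide arrays lay beside the vehicle arrays.

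At the threshold itself, NRARP, FZD9 and METRNL were the last of the 29 inside it, at an adjusted p of 0.045. NGFR, the low-affinity neurotrophin receptor, and SYNM were the first outside, at 0.0501, and NGFR lay 0.54 above SAHA on the mean with all 4 depsipeptide arrays above.

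In the 3 called genes that failed the side condition FK228 lay far below SAHA and largazole beside or above it. PHLDA1, a pleckstrin homology protein downstream of ERK, stood at 10.62 and 10.55 with largazole, 8.48 and 8.55 with FK228, 10.53 and 10.33 with SAHA, and 11.84 and 11.75 with vehicle. TGIF1, a homeobox corepressor of TGF-beta signalling, stood at 8.79 and 8.69 with largazole, 6.35 and 6.49 with FK228, 8.41 and 8.43 with SAHA, and 10.34 and 10.43 with vehicle. Largazole lay above SAHA by 0.16 and 0.32 in these, and FK228 below it by -1.91 and -2.00, so their mean differences of -0.88 and -0.84 describe neither compound. Without probe sets ending in _x_at or _s_at, TGIF1 gave -0.02. The third, ZC3H12C, an RNA-binding zinc finger gene, stood at 5.38 and 5.29 with largazole, 3.86 and 4.10 with FK228, 5.28 and 5.54 with SAHA, and 7.47 and 7.49 with vehicle. TGIF1 and PHLDA1 were also the 2 genes lowest with FK228 against largazole, at -2.32 and -2.07, followed by CYP24A1 at -2.05, WNT16 at -1.98 and PDE4B at -1.90. The TGIF1 value depended on the setting and ran from -2.39 to -0.04 over the alternatives. PHLDA1 ran from -2.11 to -1.50, CYP24A1 from -2.23 to -1.87, WNT16 from -2.19 to -1.06 and PDE4B from -2.08 to -1.14. For PDE4B, a cAMP phosphodiesterase, the mean covered opposite differences, with largazole 0.95 above SAHA, FK228 at -0.95 from it and the mean of both at -0.0014. CFAP184 was alike in the other direction, with largazole at -0.69 and FK228 at 0.71 against SAHA. CYSRT1 and EHD1, the other genes among the 5 highest with FK228 against largazole, differed by 1.23 and 1.21.

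Of the 62 called probe sets (0.214%), 30 do not stand for a gene, and those with several annotated symbols are given by their identifiers, chosen after their values were seen. The 8 with several symbols and the 2 with none all met the side condition. Probe set 227062_at stood at 6.95 and 6.77 with largazole, 6.89 and 6.80 with FK228, 5.25 and 5.40 with SAHA, and 4.45 and 4.61 with vehicle. Probe set 234989_at stood at 8.24 and 8.07 with largazole, 8.26 and 7.98 with FK228, 6.78 and 6.57 with SAHA, and 5.66 and 5.61 with vehicle. Probe set 225239_at stood at 10.07 and 10.14 with largazole, 10.19 and 10.07 with FK228, 8.94 and 8.80 with SAHA, and 8.01 and 7.70 with vehicle. In these 3 the depsipeptides overlapped each other and lay 1.53, 1.46 and 1.25 above SAHA, which itself lay above vehicle. Probe set 200799_at, also of several symbols, lay 1.52 above SAHA, and its SAHA arrays, at 3.87 and 3.74, lay under the vehicle arrays at 4.57 and 4.39. Its SAHA arrays and vehicle array 2 lay under the filter value of 4.49. It was thus tested only through its depsipeptide arrays, so its difference from SAHA was favoured by the filter.

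A further 20 called probe sets belong to a gene that another, brighter probe set represents, and 17 of them met the side condition. For DCAF7, an adaptor of ubiquitin ligases, 224730_at read -0.74 against SAHA while the brighter probe set read 0.09. HNRNPA1, an RNA-binding splicing factor, read 0.78 and 0.76 on 2 probe sets against 0.23 on the brightest. SUV39H2, a histone methyltransferase, read -0.56 against -0.15, NORAD, a long noncoding RNA, -0.85 against -0.13, and BPTF, a chromatin remodeller, -0.87 against -0.02. These genes were named after their values were seen, and their probe sets disagree in size, so no level of the whole gene is drawn from them.

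The genes of the drugs' targets were not called between the treatments. Of the 11 zinc-dependent HDAC genes, the depsipeptide mean minus SAHA ran from -0.08 for HDAC2 to 0.25 for HDAC6, and every 95% interval included 0. HDAC6 had the lowest adjusted p, at 0.38. Against vehicle HDAC3, a class I deacetylase, rose with all 3 compounds, by 0.50, 0.72 and 0.69 with largazole, FK228 and SAHA. HDAC4, a class II deacetylase, fell by 0.48, 0.37 and 0.41 on the log2 scale. The directions did not follow class. HDAC8, also of class I, lay at -0.32, -0.39 and -0.28 from vehicle, and HDAC5, also of class II, at 0.41, 0.44 and 0.32. By limma both were called with all 3 compounds, as were HDAC7 (lower) and HDAC11 (higher). Between FK228 and largazole at equal dose the lowest adjusted p of an HDAC gene was 0.17, for HDAC11.

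Across 41 gene lists, 9 held a called member and 32 held none; in the latter 63 of 761 tested entries were higher and 45 lower at an unadjusted p under 0.05, against 9.12% and 5.6% of all genes. The mitosis and spindle checkpoint list had 0 of 41 members called, 6 lower at an unadjusted p under 0.05, and 5 (12.2%, against 6.31% of all genes) with all depsipeptide arrays below SAHA, its lowest being KIF23, a kinesin of cytokinesis, at -0.29. Its median difference was -0.11, made of -0.01 with largazole and -0.23 with FK228. The 17 genes of ERK pathway output and feedback had a median of -0.14, made of 0.05 with largazole and -0.35 with FK228, and PHLDA1 as the called member. The 12 mesenchymal genes had a median of 0.17, with SNAI1, a repressor of E-cadherin, highest at 0.40, and 0 called, 3 of them higher at an unadjusted p under 0.05. That median ran from 0.08 to 0.18 over the alternative settings. The 20 genes of TGF-beta and BMP signalling had a median of -0.05, with TGIF1 as the called member.

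Lists chosen for the broader action of SAHA held no called member among the genes tested. Over all genes, 9.12% were higher and 5.6% lower at an unadjusted p under 0.05 by limma. The 12 tubulin genes had a median of 0.09, 0 called and 2 higher at an unadjusted p under 0.05, and the 20 heat shock genes and partners of the tubulin deacetylase a median of 0.05, 0 called and 1 lower at an unadjusted p under 0.05. HSPA2, called higher, is not on that list. Of the 26 genes fixed for it 20 were tested, and genes covered only by probe sets of several symbols could not be. The 25 metallothioneins and zinc transporters had a median of -0.06, with 0 called, 2 higher and 3 lower at an unadjusted p under 0.05. Of these 25, 6 (24%) lay below SAHA on all depsipeptide arrays and 2 (8%) above, against 6.31% and 10.9% of all genes. The 6 were the metallothioneins MT1E, MT1F, MT1H, MT1X and MT2A, which bind zinc, and the zinc transporter SLC39A7, at -0.10 to -0.20. Histone genes had a median of 0.07, cholesterol synthesis genes 0.07 and ribosomal protein genes 0.01.

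**Figure D4:**
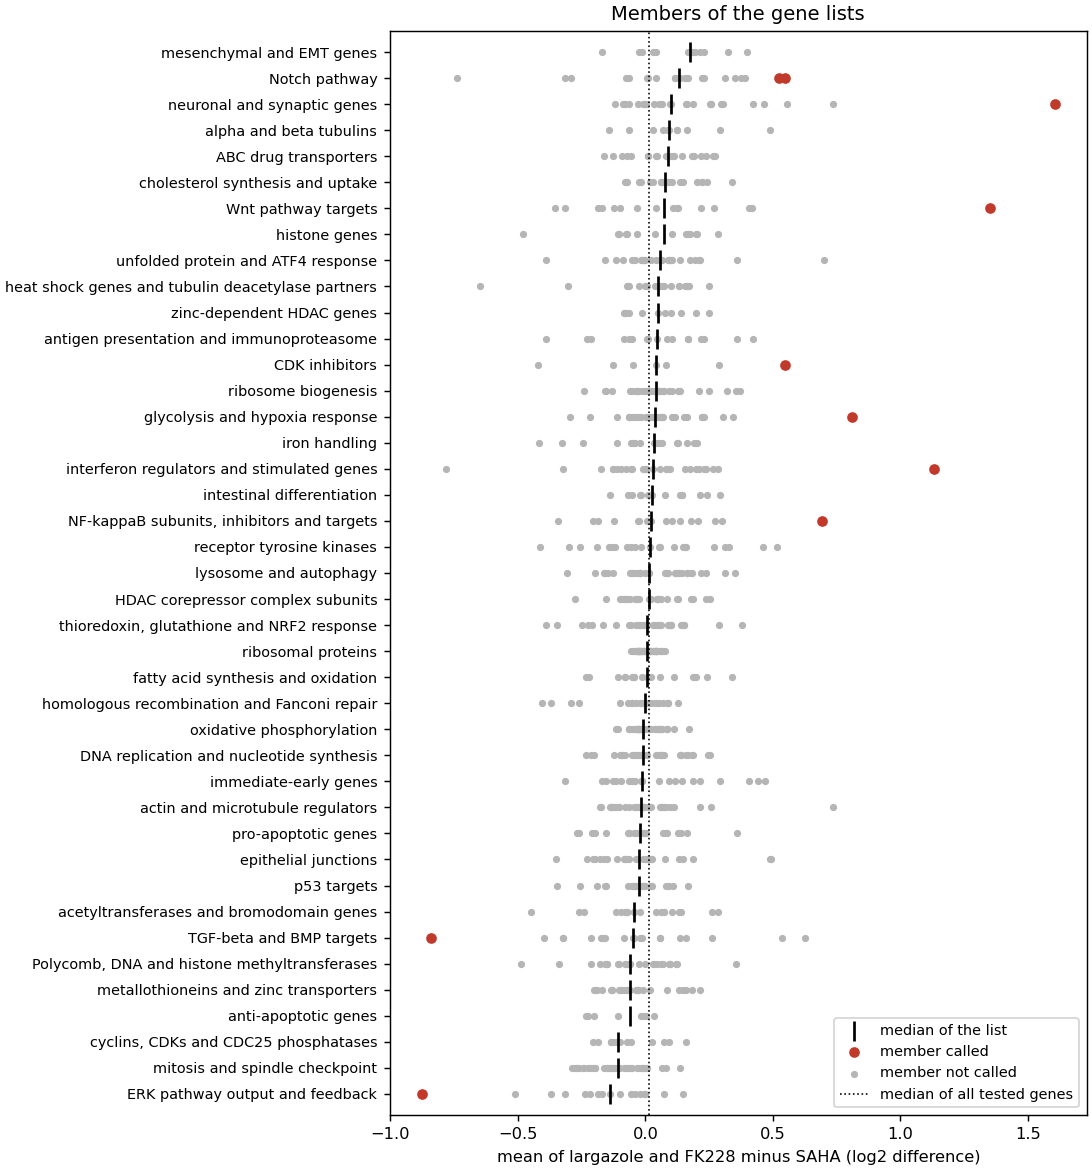
Depsipeptide mean minus SAHA (horizontal axis, log2) for the tested members of the 41 gene lists, 1 row per list, ordered by the list's median (vertical bar). Red points are called members, the dotted line is the median of all tested genes, 0.01, and the list medians run from -0.14 for ERK pathway output to 0.17 for mesenchymal genes.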

How the data were processed

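The arrays (Affymetrix U133 2.0, 2 per group, 8 in all) came as a series table of log2 probe set levels that the authors deposited. Per the submitters' processing notes affy, RMA and limma were used, in unstated versions and order, and the steps behind the values are otherwise not known here. Precision is limited by the number of arrays. The table holds 54613 probe sets, of which 41091 carry 1 gene symbol, 1801 several and 11721 none in the platform annotation, and 41037 of those with 1 symbol matched the RefSeq gene table. Probe sets whose second-highest value reached the median of all values, 4.49, were kept (28985), and a gene is its brightest probe set with exactly 1 symbol (13381 genes).

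All 8 arrays were fitted with limma 3.58.1 in R 4.3.3, 1 coefficient per group (4 residual and 3.69 prior degrees of freedom), with Benjamini-Hochberg adjustment over the tested probe sets and a threshold of 0.05. A p adjusted over the 3 pairs of compounds ran over their probe sets together. The fit was tested on simulated data. Promoter motifs, tables and figures used Python 3.11.15, pandas 2.3.3 and matplotlib 3.10.9.

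Named genes were the 12 highest and 12 lowest called genes on one side of SAHA by the smaller of their differences (4 were lower), up to 2 called members per list and direction, the 5 highest and 5 lowest of FK228 minus largazole, the HDAC genes and CDKN1A. The members and lists were chosen with earlier results of these data known. The alternatives, given in the closing section, were 2 filters, a trended robust prior, a replicate block, array weights, 2 further scalings, other choices of probe set, only the arrays compared, another call rule and each array left out.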

Additional observations from a re-analysis of the deposited data

How the results depend on the processing

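The counts of called genes depended on the setting more than the directions did. Each of the 29 genes, where it could be measured, kept its sign in all 18 settings except FTCD, which gave -0.0326 without probe sets ending in _x_at or _s_at. Without those probe sets only 18 of the 29 could be measured, and 13 of them were still called. Among those not measured there were MIR7-3HG, IRF7, NRIP1, ARID1A and HS3ST1. Against 32 called genes (25 higher, 7 lower, 29 on one side of SAHA), no filter gave 20 (3 lower, 18 on one side), the stricter filter at 6.87 gave 264 (176 higher, 88 lower, 219 on one side), and an intensity trend with a robust prior gave 243 (160 higher, 83 lower, 204 on one side). Leaving out _x_at and _s_at probe sets gave 17 (14 higher, 3 lower, 16 on one side), averaging a gene's probe sets gave 105 (70 higher, 35 lower, 94 on one side), only the arrays compared gave 20 (3 lower, 18 on one side), and array weights gave 4 lower. A further quantile normalization gave 42 and equal medians of the ribosomal protein genes 33. Of the 29, the robust prior and the quantile normalization each kept 29, the stricter filter 22 of the 22 it tested, no filter 16 and array weights 22. Calling each depsipeptide against SAHA gave 28. Leaving out 1 array gave 0 to 20 called genes, 0 to 17 higher, 0 to 5 lower and 0 to 18 on one side. By limma, leaving out SAHA array 1 gave 0 calls and 1221 genes at an unadjusted p under 0.05. These fits assume that a group's single remaining array varies as the other groups do. FK228 minus largazole gave 1214 genes, against 562 with no filter, 1924 with the stricter filter, 2024 with the robust prior, 702 with only its own arrays, and 99 to 1001 with 1 array left out. Differences near 0 changed sign: HDAC8 gave 0.0153 with averaged probe sets, and leaving out 1 array gave -0.287 to 0.122 for HDAC2, -0.0365 to 0.00845 for HDAC4, -0.21 to 0.0803 for HDAC9, -0.000696 to 0.153 for HDAC10 and -0.106 to 0.0106 for CDKN1A. For the 29 genes, 276 of 504 values kept direction and call, 227 lost the call and 1 changed sign. Of 738 list medians, 90 moved by more than 1 SD between replicates. The cause of these shifts was not tested.

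Replicate numbers are shared between groups. Deviations of same-numbered arrays correlated at 0.13 to 0.27 over the 6 pairs of groups. A comparison holds only 2 numbers and the labels state no shared batch, so whether same-numbered arrays share more than a number is not known. With the replicate number as a block, limma called 22 genes (17 higher, 5 lower), 19 of them on one side of SAHA and 18 of them among the 29, and 1864 genes for FK228 minus largazole. The 11 of the 29 not called with the block were CEP192P1, CD24, NRARP, FZD9, DPYSL4, CDKN1C, LFNG, PLCXD1, BAIAP2, GLIS3 and HS3ST1.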
